A study of Drosophila melanogaster with 3 samples.

Results

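Dense clusters of CG6163-eGFP binding held 1357 of the 9976 binding regions on chromosome arms 2L, 2R, 3L and 3R and on X, or 13.6%. A binding region is 1 peak of the conservative peak list, or overlapping peaks merged into 1 with the summit of the peak of highest signal. A region was placed in a dense cluster when at least 7 other summits lay within 10 kb on either side of its own. The regions were chosen by these positions alone, so the crowding itself is described below and not tested. Member regions whose neighbouring summits lay no more than 10 kb apart were joined, which gave 189 clusters, each measured from its first to its last member summit. The other 8619 regions on these chromosomes serve for comparison.

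The data are chromatin immunoprecipitation with sequencing (ChIP-seq) of whole Drosophila melanogaster prepupae of the strain CG6163-GFP, which carries an insertion targeting the gene CG6163. The flies make CG6163 fused to eGFP, a green fluorescent protein that served as the handle for an anti-GFP antibody. The antibody field of the labels reads CG6163. The single group holds 3 biological replicates, all with the insertion, and no other genotype or treatment was compared. The time within the prepupal stage is given as unknown and sex as not collected. Sonication gave chromatin fragments of 200 to 800 bp. Whole animals mix all tissues, so binding in the same cells and binding in different cells cannot be told apart for neighbouring summits. The possible control named by the labels was not analysed here. The labels do not say whether the 3 replicates came from separate collections, so the spread between them may be partly technical.

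ChIP-seq recovers DNA that lies close to a protein, and a peak summit marks where recovery was greatest. In flies, enhancers often lie in long introns and in the gaps between genes, and many developmental regulators have several of them. Many regulatory proteins can gather at such open stretches of chromatin. In prepupae the steroid hormone ecdysone is driving metamorphosis, when larval tissues break down and imaginal discs evert to form legs and wings.

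The DNA at the strongest points of these clusters is shown for 5 summits. The first 4 are the strongest summits of the largest clusters on 2L, 3L, 3R and X. A cluster is called here by the protein-coding gene that holds most of its summits. The last is the strongest of all 1357 member regions, at the Polycomb gene ph-p. Each line gives the plus strand from 50 bases before to 50 bases after the summit, from the RefSeq sequence of the dm6 assembly. Capitals mark matches to the searched words GAGAG and TATAAA, here both on the minus strand.
aop cluster, chr2L:2164920-2165020: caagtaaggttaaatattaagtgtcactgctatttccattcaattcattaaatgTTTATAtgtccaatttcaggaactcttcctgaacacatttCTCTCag
hng3 cluster, chr3L:762482-762582: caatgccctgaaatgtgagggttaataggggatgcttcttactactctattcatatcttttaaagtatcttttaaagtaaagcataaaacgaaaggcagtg
heca cluster, chr3R:30265576-30265676: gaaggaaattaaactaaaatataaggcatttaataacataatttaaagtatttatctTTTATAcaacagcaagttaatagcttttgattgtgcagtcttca
Smr cluster, chrX:12752304-12752404: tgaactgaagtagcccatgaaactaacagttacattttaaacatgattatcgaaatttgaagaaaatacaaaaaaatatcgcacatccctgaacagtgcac
ph-p cluster, chrX:2137295-2137395: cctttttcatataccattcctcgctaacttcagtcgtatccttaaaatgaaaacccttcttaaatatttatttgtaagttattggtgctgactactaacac

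The A/T content of these windows was 68.3%, 65.3%, 76.2%, 67.3% and 67.3% in that order, in each case above the mean of 60.6% over windows of the same length at all member summits. Signal below is the authors' value per peak within 1 list, and no label gives its scale. The aop summit had a signal of 144 in replicate 1, 248 in replicate 2 and 167 in replicate 3. The hng3 cluster summit had 276, 387 and 304 in the same order, and the heca cluster summit had 486, 456 and 320. The Smr cluster summit had 666, 723 and 545, and the ph-p summit 794, 886 and 759. All 5 summits lay in peaks of every replicate's thresholded list, and the ph-p summit was the highest of the 5 in each.

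Most regions of the series had few neighbours. Of all 9976 regions, 997 had no other summit within 10 kb and 1641 had 2, the most frequent number, while 445 had exactly 7 and so fell just inside the rule. The 714 regions with 6 neighbours fell just outside it. The median signal was 154 with 6 neighbours and 150 with 7, and promoter summits made up 24.6% and 25.2%. There was no step in signal or in promoter share between these edge groups. The highest number of neighbours was 18, reached by 3 member regions, all of them in the cluster over CG6163.

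**Figure D1:**
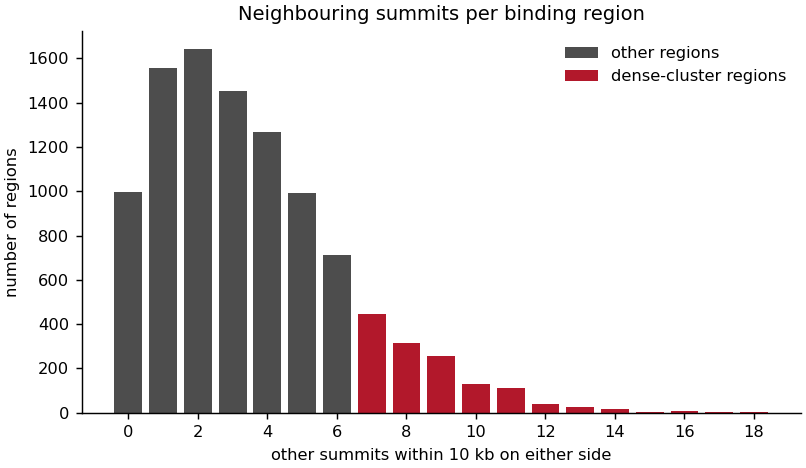
Number of binding regions (vertical axis) by the number of other summits within 10 kb on either side (horizontal axis), with dense-cluster regions in red and other regions in grey. Counts fall steadily through the cutoff, from 714 regions with 6 neighbours to 445 with 7, and end at 3 regions with 18.

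Clusters ranged from single members to long runs. Clusters held a median of 7 members and spanned a median of 9.26 kb, and the longest spanned 64.8 kb. There were 28 clusters of a single member and 47 of 2 to 4 members. The 46 clusters of 10 or more members held 685 members, 50.5% of all. Together the spans came to 1.96 Mb, 1.48% of the 5 chromosomes. Neighbouring members of a cluster were a median of 1218 bp apart (quartiles 754 and 2148 bp), against 3774 bp between neighbours over all regions. Of the 92 clusters with 8 or more members, 64 had at least as many summits inside the gene that names them as outside it, and 29 had every summit inside it. In 9 of the 92, no member summit lay in a protein-coding gene. Of the 9 clusters of 20 or more members, 5 had fewer summits inside the naming gene than outside it. Over all members, 66.9% of summits lay inside a protein-coding gene, close to the 67.1% of other regions.

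Clusters were spread unevenly over the chromosomes. On 3L, 403 of 2212 regions (18.2%) were members, in 48 clusters, and on X 318 of 1948 (16.3%), in 47. On 2R, 247 of 1788 regions (13.8%) were members, in 26 clusters. On 3R the share was 220 of 2249 (9.78%), in 42 clusters, and on 2L 169 of 1779 (9.50%), in 26. The largest cluster had 42 members on 3L, 28 on X, 27 on 2R, 21 on 3R and 14 on 2L. The share of members was thus highest on 3L and lowest on 2L, with 3R close to 2L.

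The largest cluster, of 42 regions, ran over 64.8 kb of 3L (721185 to 785947) around hng3 and emc. The gene emc, which lies within hng3, encodes a helix-loop-helix inhibitor of proneural factors. Inside hng3 lay 13 of the summits, while 28 of the 42 were intergenic, 9 were intronic and 5 lay at promoters. The span also covered an initiator methionine tRNA gene and a pair of isoleucine tRNA genes. Thresholded lists placed 30, 32 and 26 summits in the span in replicates 1, 2 and 3, and 21 of the 42 regions overlapped a peak in every replicate. To set beside this and the same counts for other clusters, the share was 41.3% over all regions and 48.3% over all members. Its strongest summit, printed above with a conservative-list signal of 971, lay 6971 bp upstream of the nearest transcript start, that of tRNA:Ile-TAT-1-1. The next strongest, signal 855, lay 423 bp downstream of a start of hng3, with 335, 313 and 243 in the replicates. The 4 strongest summits were of similar height, between 795 and 971, and lay far apart along the span.

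This cluster was 1 of a run of 4 on 3L between 0.5 and 0.83 Mb, which held 93 members. The nearest of the others, 11.2 kb away, had 15 regions, all outside protein-coding genes, nearest to lncRNA:CR44537. On the other side a cluster of 24 regions (606552 to 644304) covered Reg-2 and mir-ban, the bantam microRNA that promotes tissue growth and survival, with several long noncoding RNA genes. Its strongest summit had a conservative-list signal of 798, and 256, 292 and 254 in replicates 1, 2 and 3, in an exon of a noncoding RNA nearest to the start of lncRNA:CR43423. The fourth, of 12 regions, lay over Hipk, a homeodomain-interacting protein kinase. Over all chromosomes the median gap between neighbouring clusters was 285 kb, and 29 neighbouring pairs lay within 50 kb of each other. The clusters of 24 and 42 regions were farther apart than 50 kb.

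The gene of the tagged protein lay in the most crowded cluster. That cluster held 28 regions in 32.9 kb of 3L (11349402 to 11382260) around CG6163 (11361986 to 11364885). Of the 28 summits, 22 were intergenic, 4 lay at promoters and 3 lay inside CG6163. The strongest, 4343 bp upstream of the CG6163 start, had a signal of 1495 in the conservative list and of 562, 670 and 291 in replicates 1, 2 and 3. The summit 222 bp upstream of that start had 825 in the conservative list, and 300, 379 and 171 in the replicates. Replicate 3 was the lowest and replicate 2 the highest at both. Of the 28 regions, 17 overlapped a peak in all 3 replicates. Within 200 kb of CG6163 lay 6 clusters with 76 members, among them 16 regions around Dyro (11276333 to 11299384), which were weaker, with a highest signal of 279, and of which 3 overlapped a peak in all 3 replicates. The insertion that makes the fusion protein targets this locus, and its part in the peaks there was not tested.

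A cluster of 28 regions on X (12719357 to 12760831) covered the 5' part of Smr, which encodes Smrter, a corepressor of the ecdysone receptor, with CG4004, Paics and pira beside it. Inside Smr were 14 of its summits, but its 3 strongest (1975, 1703 and 1524) lay near lncRNA:CR44619, outside Smr. In the replicates the summit of 1703 had 602, 634 and 482, and the strongest within Smr, of signal 785, had 249, 265 and 235. The order of these summits was the same in each replicate.

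All 27 summits of a 2R cluster (18300452 to 18350130) lay inside sbb, the scribbler or brakeless gene of a transcriptional corepressor, and 26 of them in its introns. Its strongest summit had a signal of 1037, with 367, 381 and 262 in replicates 1, 2 and 3, and lay 22040 bp from the nearest transcript start. A second summit reached 1036, with 350, 357 and 319. The sbb cluster thus had a pair of summits of equal height in the conservative list, one higher in replicates 1 and 2 and the other in replicate 3.

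On 2R lay 3 more clusters of 20 or more. A cluster of 24 regions (13991187 to 14031654) had 23 summits inside mam, which encodes the Notch coactivator Mastermind. Its strongest had 699, with 257, 285 and 190 in the replicates, and 8 of its 24 regions overlapped a peak in all 3, a share below the 41.3% of all regions. A cluster of 22 regions (11175662 to 11207229) lay wholly inside shn, whose zinc finger protein Schnurri acts in Dpp signalling. Its strongest had 983, with 347, 389 and 232, and 14 of its 22 regions were in all 3 replicates. The other cluster of 22 regions (10534406 to 10566731) lay over lola and psq, genes of BTB-domain transcription factors. There the strongest had 659, with 223, 268 and 139, and 13 regions were in all 3 replicates.

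On 3R, 21 regions (30255627 to 30289502) ran from the intergenic stretch before heca, also known as headcase, into its introns. Of the 21 regions, 14 were intergenic and 17 overlapped a peak in all 3 replicates. At 17 of 21, this was the highest count in proportion to size among the clusters of 20 or more. Its strongest summit, printed above, had a conservative-list signal of 1264, and a second at the other end of the intergenic stretch had 1083, with 430, 415 and 231 in the replicates.

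**Figure D2:**
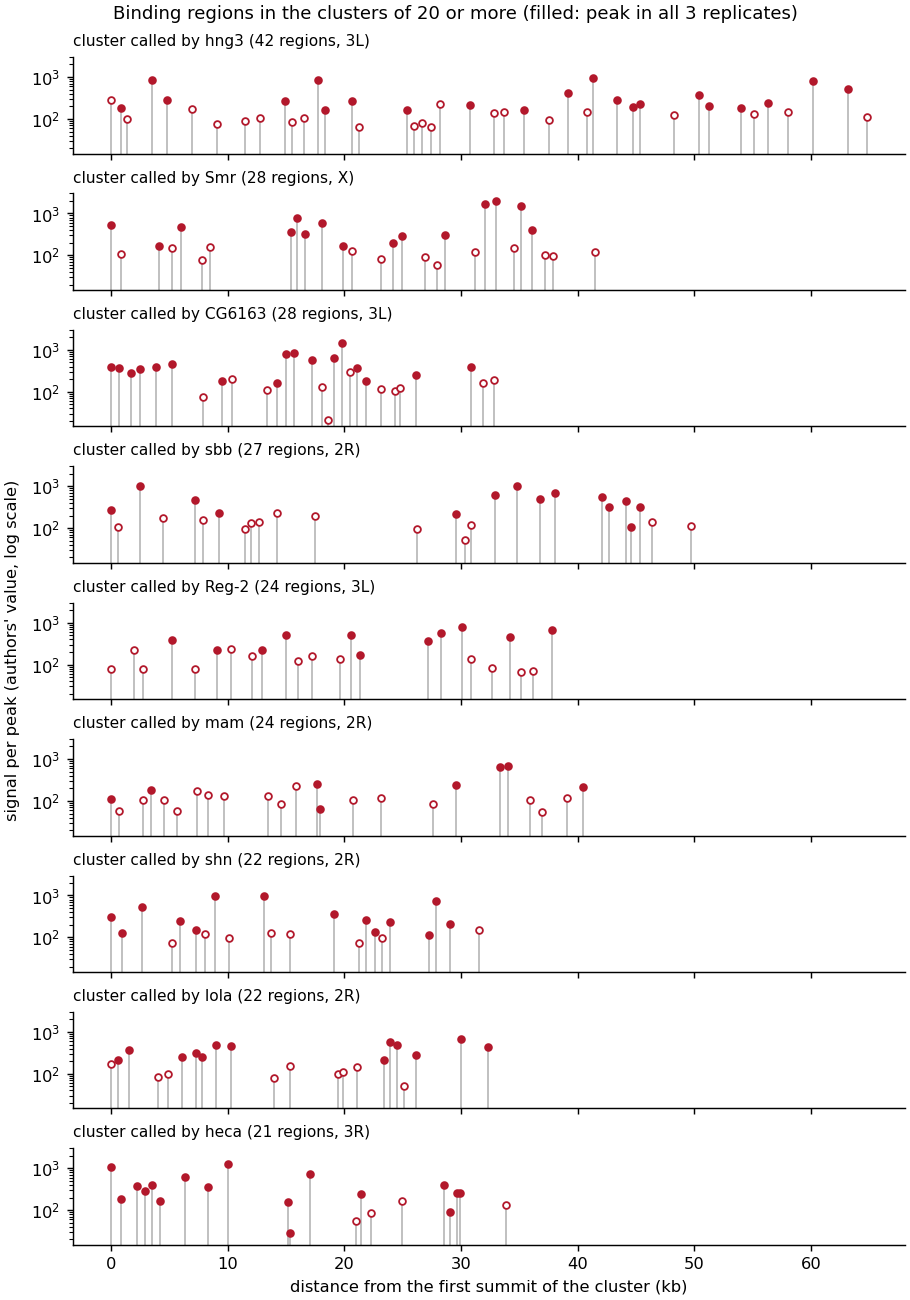
Signal of each region in the conservative list (vertical axis, authors' value, log scale) against distance from the first summit of its cluster in kb (horizontal axis), for the 9 clusters of 20 or more regions. Filled points overlapped a peak in all 3 replicates and open points did not; high summits are interspersed with lower ones along each cluster.

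The remaining clusters among the 20 largest had 13 to 18 regions. All 18 summits of an X cluster (3671848 to 3695481) lay inside Mnt, a partner of Max that opposes Myc, with a strongest signal of 698 and 230, 259 and 171 in the replicates. An X cluster of 15 regions over the kinase gene Raf (2285715 to 2306590) had its strongest summit in an intron, at 1768, with 535, 657 and 576. Another of 15 lay inside CG1677, yet its strongest summit, 603 with 249, 239 and 165 in the replicates, was nearest to the start of brk, 5402 bp upstream of it. The gene brk encodes a repressor of Dpp targets, so the gene that names this cluster and the nearest start differ. On 2L, 14 regions lay over aop, the ETS repressor Yan, and 13 over drongo. All 14 summits of another 2R cluster lay inside tou, and 10 of its regions overlapped a peak in all 3 replicates.

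Some large clusters had no protein-coding gene under most of their summits. One on 3L (3380656 to 3400698) had 16 regions, all intergenic, nearest to lncRNA:CR45737, and 11 of them overlapped a peak in all 3 replicates. Its strongest summit had 878, with 423, 469 and 334. Another 16 on 3L (10735264 to 10792768) were spread over 57.5 kb near lncRNA:CR44544, and 15 were intergenic. That span held 24 summits in all, so it was not dense throughout. Of its 16 members, 1, 2 and 2 were dense in the own lists of replicates 1, 2 and 3. A single summit of 2339 stood above the rest there, with 781, 904 and 692 in the replicates and a cluster median of 162. A cluster of 15 regions on 3L with 7 summits inside CG5151 was weaker, with a strongest signal of 303.

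Signal was uneven within the larger clusters. Over the 92 clusters of 8 or more members, the strongest member held a median of 26.1% of the cluster's summed signal. It was a median of 3.75 times the cluster's median signal, with a range of 1.43 to 15, and it exceeds that median by construction. It lay at a promoter in 17 of the 92 clusters (18.5%), against 21.1% of all members and 35.9% of all regions. The strongest member in the conservative list was also the strongest in replicate 1 in 81 clusters, in replicate 2 in 83, in replicate 3 in 74, and in all 3 in 61.

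The strongest members of all were high in every replicate. After the ph-p summit, of conservative-list signal 2531, and the summit of 2339 near CG43245 came a summit of 2248 inside osa, which encodes a subunit of the Brahma chromatin remodelling complex. The osa summit had 789, 890 and 639 in replicates 1, 2 and 3. Next came a summit of 2196 inside CG1888, 239 bp upstream of a transcript start within that gene, with 749, 843 and 691. Then came an intronic summit of CG3726, of 2139, with 706, 766 and 629. An intronic summit of Tlk, a Tousled-like kinase, had 1862, with 661, 662 and 561. Of the 10 strongest members, 7 lay on X, among them the summits of 1975 and 1703 of the Smr cluster. X held 318 of the 1357 members and 1948 of all 9976 regions. Each of the 10 overlapped a peak in all 3 replicates.

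Member regions were somewhat stronger than other regions, with much overlap. The median conservative-list signal was 164 in members (quartiles 108 and 292, range 12.2 to 2531) and 147 in other regions (quartiles 104 and 243, range 3.34 to 4494). Members made up 13.6% of all regions and 13.6% of members were among the strongest 10% of regions, with a signal of 444 or more, and 13 were among the 100 strongest regions. Peak width did not separate them, with a median of 370 bp in both. A q-value above 0.05 in the conservative list applied to 353 members, or 26.0%, near the 28.3% of all regions.

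In the replicates the same order was seen. Thresholded peaks of replicate 1 overlapped 955 members, or 70.4% (65.2% of all regions), those of replicate 2 overlapped 1021, or 75.2% (68.5% of all regions), and those of replicate 3 overlapped 775, or 57.1% (50.6% of all regions). The shares of other regions were 64.4%, 67.4% and 49.6%. Members were higher by 6.01, 7.83 and 7.56 percentage points, which is 7.13 ± 0.982 (SD, n = 3), larger than the spread between the 3 differences. The exact two-sided sign-flip permutation test over 3 replicates gave p = 0.25, the smallest it can give, so this design cannot reach 0.05. The replicate lists share reads with the conservative list and are not independent of it.

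Median signal in the replicates' ranked lists was 59.4, 65.0 and 47.4 for members and 52.5, 57.3 and 43.0 for other regions. The difference was 6.38 ± 1.73 (SD, n = 3), in the same direction in 3 of 3 replicates (exact permutation p = 0.25, again the smallest possible). As ratios these were 1.13, 1.14 and 1.10. Replicate 3, with the fewest thresholded peaks (5844, against 7449 and 7920), had the lowest values in members and in other regions alike.

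Peaks in all 3 replicates were found for 656 members, or 48.3% (exact 95% binomial interval 45.7 to 51.0), against 41.3% of all regions. Another 282 members (20.8%) had a peak in 2 replicates, 219 (16.1%) in 1 and 200 (14.7%) in none. In other regions the shares were 40.2% in 3, 20.8% in 2, 19% in 1 and 20% in none. Within quartiles of conservative-list signal the gap between members and others was smaller. In the lowest quartile 2.61% of members and 0.914% of others were in all 3 replicates, in the next 12.5% and 8.29%, in the third 61.3% and 58.3%, and in the highest 95.9% and 96.8%. Intervals cover counting error only, and neighbours in 1 cluster are not independent of each other.

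**Figure D3:**
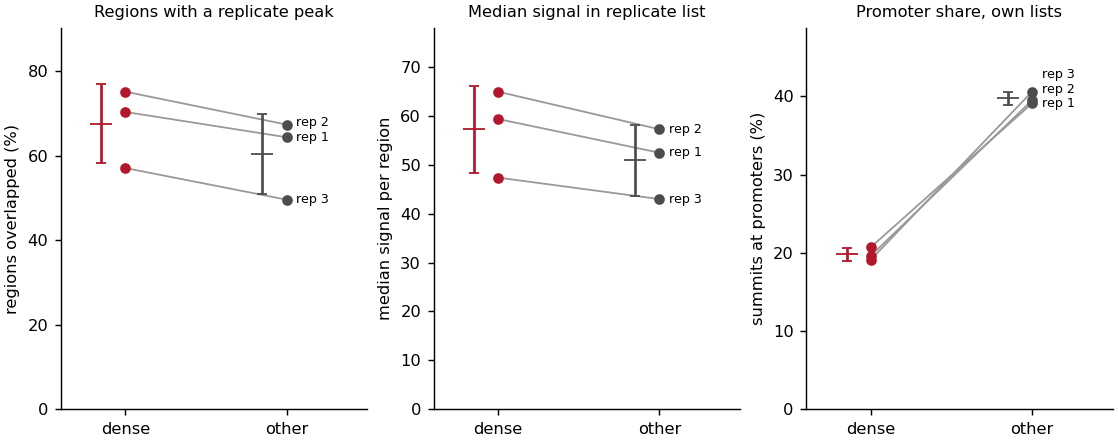
Dense-cluster regions (red) and other regions (grey) in each of 3 replicates joined by lines, with mean and SD beside them: percent of conservative regions overlapped by a replicate peak, median ranked-list signal, and percent of summits at promoters when each replicate's own list is sorted by the same rule. Overlap and signal were higher in dense regions in 3 of 3 replicates, and the promoter share was lower.

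Crowding was less often seen in the lists of single replicates. When the same rule was applied to each replicate's own thresholded list, 461 of the 1357 members (34.0%) overlapped a dense region of replicate 1, 565 (41.6%) one of replicate 2 and 242 (17.8%) one of replicate 3, a mean of 31.1% ± 12.2 (SD, n = 3). Of other regions, 32 (0.371%), 55 (0.638%) and 9 (0.104%) overlapped one in replicates 1, 2 and 3. The number of peaks in each list limits this count. The own lists gave 81, 89 and 39 clusters, of which 72, 80 and 35 overlapped a cluster of the conservative list. Of the 92 clusters of 8 or more members, 29 had a dense member in all 3 replicates and 16 in none. The clusters of replicates were mostly a subset of those described above, and the smallest subset was that of replicate 3. Because the replicate lists share reads with the conservative list, this overlap is not an independent check.

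Members lay farther from transcript starts than other regions. A promoter here reaches 500 bp to each side of a transcript start, and 287 members, or 21.1% (exact 95% interval 19 to 23.4), had their summit in one, against 35.9% of all regions and 38.2% of other regions. Introns held 734 members, or 54.1% (51.4 to 56.8), against 42.4% of others, and intergenic stretches held 283, or 20.9% (18.7 to 23.1), against 16.0%. Coding exons held 10 members and 3' UTRs 11. The median distance to the nearest start was 2196 bp in members and 1065 bp in others.

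The lower promoter share was seen at every height of signal. In quartiles of conservative-list signal, from lowest to highest, promoter summits made up 20.6%, 22.0%, 22.6% and 19.8% of members, and 34.4%, 36.7%, 39.5% and 42.4% of other regions. In others the promoter share rose with signal, while in members it was about level. Median signal in members was 164 at promoters, 161 in introns and 179 in intergenic stretches, and 155, 146 and 138 in other regions. In the replicates' own lists, dense summits were at promoters in 20.7%, 19.6% and 19.1%, a mean of 19.8% ± 0.819 (SD, n = 3), and other summits in 39.1%, 39.5% and 40.6%, a mean of 39.7% ± 0.777. The groups did not overlap, and the exact two-sided permutation test gave p = 0.25, the smallest possible with 3 replicates.

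**Figure D4:**
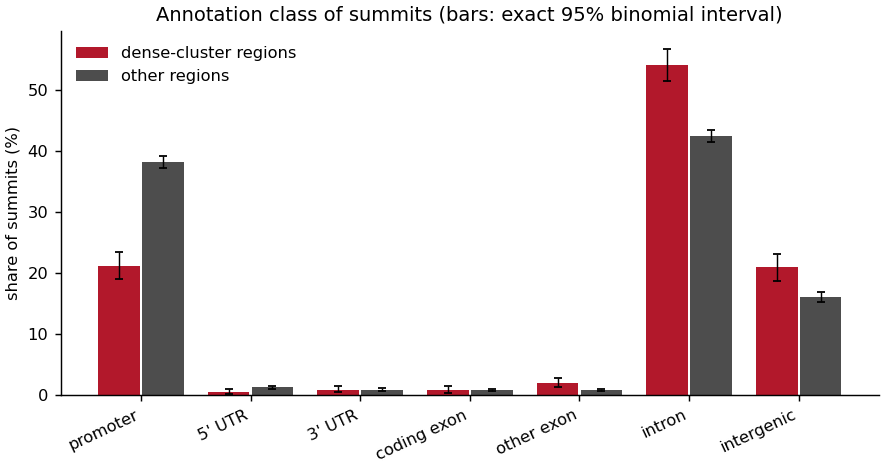
Share of summits (vertical axis, percent) in each annotation class for dense-cluster regions (red, n = 1357) and other regions (grey, n = 8619), with exact 95% binomial intervals that cover counting error only. Dense-cluster summits were at promoters in 21.1% and in introns in 54.1%, against 38.2% and 42.4% of other summits.

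A/T content averaged 60.6% around member summits and 61.7% around others, and 57.8% and 56.7% in windows 300 bp away. In the replicates' own lists it was 61.2% ± 0.200 for dense summits and 63.0% ± 0.208 for others (SD, n = 3). GAGAG, the letters of the GAGA factor element, was found on either strand in 17.1% of member windows (50 bases to each side of the summit) and 16.0% of the same windows over all regions. CACACACA was found in 3.83% and 3.06%, and TATAAA, the core of the TATA box, in 14.9% and 16.3%. TAATTA, a homeodomain core, was found in 5.23% and 6.64%, and TGANTCA, an AP-1 element, in 2.80% and 2.36%. AGGTCA, a nuclear receptor element, was found in 1.33% and 1.65%.

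The rest of the searched words were TATCGATA, the DRE element of promoters, in 0.221% of member windows and 0.672% of all, CAGGTAG in 0.295% and 0.361%, TGATAA in 7.22% and 7.43%, CACGTG in 0.737% and 0.902%, and TTATNTAA in 4.20% and 5.16%. Both strands were searched for each. TATCGATA was in 3 member windows, with an exact 95% interval of 0.0456% to 0.645%, below its share of 0.672% over all windows. For TAATTA the interval was 4.11% to 6.55%, also below its share over all. These intervals cover counting error only, neighbours in a cluster are not independent, and the words were singled out from 11. Members were also at promoters less often (21.1%, against 35.9% of all regions), which the word shares do not take into account. Windows 300 bp from member summits held GAGAG in 17.4% and TATAAA in 12.7%, so GAGAG was not more frequent at member summits than beside them. A match is only a match of letters.

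The clusters covered few genes, and long ones. Their spans overlapped 237 of 13865 protein-coding genes, which is 1.71%, and 196 genes (1.41% of all) held a member summit in their body. The median length was 19955 bp for overlapped genes and 2.13 kb for those not overlapped. In the longest quartile of genes, of 4.92 kb or more, 4.88% were overlapped, against 0.750%, 0.577% and 0.635% in the shorter quartiles. The 45 genes with 8 or more member summits had a median length of 42.4 kb. After sbb with 27 and mam with 23 came Tlk and shn with 22 each, those of Tlk in 3 separate clusters, and then Mnt with 18. Of the 237 overlapped genes, 148 (62.4%) also had a member summit within 500 bp of a start, against 163 of all 13865. Any summit lay at a start in 24.2% of all protein-coding genes. The overlapped genes were picked by member summits, so their high share follows largely from that choice.

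Of 32 genes of the ecdysone response, clusters of the conservative list overlapped 9 (28.1%, the highest share of the 11 lists there, though not in any replicate's own list; median length 22.4 kb), against 1.71% of all protein-coding genes and 4.88% of the longest quartile. That quartile starts at 4.92 kb, so it is not matched to the list in length. Smr held 14 member summits in its body, with a strongest signal of 785. Eip74EF, an ecdysone-induced ETS factor, held 11, with a strongest of 426, and Eip75B, an ecdysone-induced nuclear receptor, held 11, with a strongest of 259. The bZIP factor gene vri held 7 and the Broad gene br 5. E23, an ecdysone-induced transporter, held 3, with a strongest of 901. In the Eip74EF and Eip75B clusters only 3 regions each overlapped a peak in all 3 replicates, while the Smr cluster had 15 of 28.

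Genes of Notch, Wnt, Hedgehog, Dpp and EGFR signalling had 11 of 52 overlapped (21.2%, median length 13.7 kb), against 1.71% of all protein-coding genes. After mam came arr, the Wnt coreceptor Arrow, with 11 member summits and a strongest signal of 672, and aop with 8 and 602. The inhibitory Smad gene Dad, the receptor gene N (Notch) and the Hedgehog receptor gene ptc held 7 each, with strongest signals of 202, 159 and 407. The others were fz2, a Wnt receptor gene, aos, which encodes an inhibitor of the EGF receptor, spi, which encodes a ligand of that receptor, Ser and sgg. In ptc and arr clusters, 4 of 12 and 2 of 11 regions overlapped a peak in all 3 replicates.

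Of the list of JNK signalling and cytoskeleton genes of disc eversion, 6 of 35 were overlapped (17.1%). The shares to set beside this and the next lists were 1.71% of all protein-coding genes and 4.88% of the longest quartile. The kinase gene msn held 7 member summits, with a strongest of 459, and kay, the Fos gene, and ena and the integrin gene mew held 3 each. Of cell death genes 2 of 17 were overlapped (11.8%). Diap1, an inhibitor of caspases, held 8 member summits, with a strongest of 1008, and 7 of the 11 regions of its cluster overlapped a peak in all 3 replicates. The cell death activator hid held 1. Of Polycomb and Trithorax genes 3 of 27 were overlapped (11.1%), namely osa with 7 member summits, ph-p with 5 and skd with 2. Of limb, wing and eye selector factors 5 of 50 were overlapped (10%), with bowl highest at 8 member summits and hth at 2 in a gene of 132 kb.

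Other lists were overlapped rarely or never. Of Hox and segmentation genes only ptc was overlapped, 1 of 40 (2.50%), and of cytoplasmic ribosomal protein genes only RpL8, 1 of 85 (1.18%). The share over all protein-coding genes was 1.71%. Of 28 neuronal genes, 23 muscle genes and 122 cuticle protein genes none was overlapped. The neuronal genes were long, with a median of 46.6 kb, and 14 of the 28 had a summit of any kind at a start, as did 9 of the muscle genes, 60 of the ribosomal protein genes and 4 of the cuticle protein genes. As shares these were 50%, 39.1%, 70.6% and 3.28%, against 24.2% of all protein-coding genes. The neuronal list had long genes and summits but no dense cluster. In the longest quartile of genes 4.88% were overlapped, a share at which few of 28 or 23 genes would be. Cuticle protein genes had a median length of 0.967 kb, and the shortest quartile was at 0.750%. The counts of 0 therefore do not set these lists apart from genes of their length. All lists were counted over the members that matched the annotation of the 5 chromosomes.

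**Figure D5:**
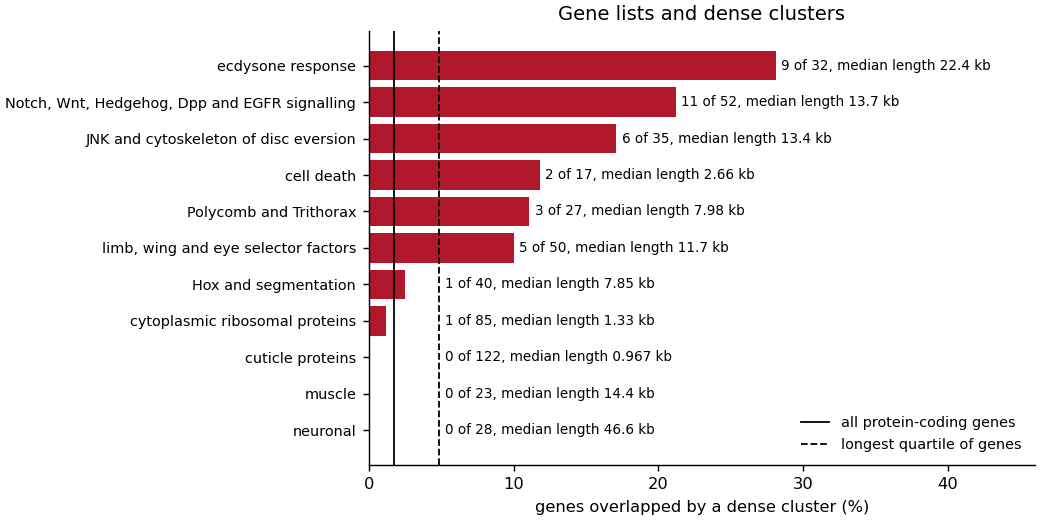
Percent of the genes of each of 11 lists overlapped by a dense cluster (horizontal axis), with the number of genes and the median gene length of each list; vertical lines mark all protein-coding genes (1.71%) and the longest quartile (4.88%). In this list of peaks ecdysone response genes were at 28.1% (3.12% to 12.5% in the replicates' own lists, where other lists were higher), and neuronal, muscle and cuticle protein genes were at 0.

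The counts were lower in the replicates' own lists, where fewer genes were covered. Clusters of replicates 1, 2 and 3 overlapped 79 (0.570%), 100 (0.721%) and 37 (0.267%) of all protein-coding genes. They overlapped 3, 4 and 1 of the 32 ecdysone response genes, with Smr in each, and 6, 7 and 1 of the 52 signalling genes, with aop in each. Diap1, msn, bowl and emc were also overlapped in each replicate. The neuronal, muscle and cuticle protein lists were at 0 there too, and so was the ribosomal protein list, without RpL8. The order of the lists was not kept. In replicate 1 signalling genes (11.5%) were above ecdysone response genes (9.38%), and in replicate 2 the JNK list (14.3%) and signalling genes (13.5%) were above them (12.5%). In replicate 3 the cell death list, with Diap1 alone, was at 5.88% and the ecdysone response list at 3.12%. With conservative peaks of a q-value of 0.05 or less, 5 signalling genes (9.62%) and 3 ecdysone response genes (9.38%) were overlapped, against 0.591% of all protein-coding genes. Polycomb and Trithorax genes were at 0 with that filter and in replicates 1 and 3, and at 2 of 27 (osa and ph-p) in replicate 2. Of the ecdysone response list, Eip74EF, br, Hr4, ftz-f1 and Eip93F were overlapped neither with that filter nor in any replicate's own list. The same held for N, spi, Ser, sgg, kay, ena, hid, skd, hth, ush and RpL8.

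Clusters rebuilt from regions found in every replicate were far fewer. With peaks in all 3 replicates, a setting chosen after the data were seen, 89 regions in 19 clusters met the rule, and they overlapped 15 protein-coding genes. The cluster around CG6163 was the largest with 10 members and a median signal of 527. It was followed by heca with 9, lncRNA:CR45737 and tou with 8 each, and hng3, sbb and Raf with 7 each. Smr had 6, with a median signal of 300. Of the ecdysone response list only Smr remained, of the JNK list only msn, and of the signalling list none.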

How the data were processed

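ChIP-seq peaks of CG6163-eGFP in whole prepupae were used, as deposited by the authors for 3 biological replicates and for the whole series, on the dm6 assembly per the labels. Per the deposited notes, each replicate's lists came from its own alignment and 1 file shared by all lists, and the series lists from all 3 libraries. Neither aligner nor peak caller is given in the sources used. The lists were filtered by the irreproducible discovery rate (IDR), a measure of how well peak ranks repeat. The signal per peak, deposited by the authors, was used to rank and describe peaks within a list. The −log10 q-value deposited by the authors was used as a filter at 0.05, and their IDR score was not used. Reads were not counted, and depth is stated in peaks: 7449, 7920 and 5844 in the replicates and 10894 in the conservative list.

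The 10889 conservative peaks on the 5 chromosomes were merged into 9976 regions where they overlapped. Each region was classed by its summit, by the Ensembl annotation, with promoters (500 bp) taking precedence over UTRs, then exons, introns and intergenic DNA. RefSeq supplied the dm6 sequence, and 0 peak ends lay beyond its chromosome lengths. Overlap with a replicate peak needed 1 bp in common, and replicate signal came from the ranked lists. Replicates were the only replicated unit, tested by exact sign-flip permutation. Intervals are exact Clopper-Pearson. Words were searched within 50 bases to each side of the summit, 11 in all.

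Clusters are called by the protein-coding gene that holds most member summits, or else by the nearest transcript start. Named are the genes of the 20 largest clusters, those of the 10 strongest members, and up to 6 overlapped genes of each of 11 gene lists. The members, gene lists and words were chosen with earlier results of these data known. Genes named beyond that rule were chosen after their values were seen. Alternatives changed the neighbour rule, merging, peak list, overlap, windows and replicates used. Scripts were tested on simulated data. Tables were handled with pandas 2.3.3 and NumPy 2.4.6 in Python 3.11.15, exact intervals came from SciPy 1.17.1, and plots from matplotlib 3.10.9.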

Additional observations from a re-analysis of the deposited data

How the results depend on the processing

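The excess of members over other regions in replicate overlap and in replicate signal kept its direction under every alternative that gives a value, from 4.18 to 13.3 percentage points and from 3.62 to 16.4 in signal. The numbers of regions, clusters and overlapped genes depended on the rule. They were 3063, 451 and 692 with at least 5 neighbours, 339, 55 and 51 with at least 10, 148, 48 and 36 with neighbours within 5 kb, 3972, 533 and 1058 within 20 kb, 454, 75 and 82 with a q-value of 0.05 or less, 704, 110 and 119 in the series list of 8933 peaks and 759, 116 and 121 in that of 9110. Unmerged peaks gave 2100 regions and 373 genes, and the list of 12445 peaks gave 2059 and 374. With 1 replicate left out of the requirement that a region overlap a peak in the others, regions ranged from 127 to 251, clusters from 24 to 39 and genes from 20 to 37. With all 3 required they were 89, 19 and 15. The causes were not tested, though fewer or more peaks enter by construction.

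The promoter share of members was 23.9% with 5 neighbours, 15.9% with 10, 25.4% within 20 kb, 20.3% by q-value, 18.9%, 20.2% and 19.5% in the lists of 8933, 12445 and 9110 peaks, 12.8% and 31.3% with windows of 200 and 1000 bp, 13.4% to 19.9% with 1 replicate left out and 13.5% with all 3 required. The share in all 3 replicates was 45.1% with 5 neighbours and also unmerged, 54.0% with 10, 56.1% within 5 kb, 43.8% within 20 kb, 69.6% by q-value, 60.2%, 42.1% and 58.9% in the 3 lists and 45.2% with summits within 100 bp. The share dense in the replicates' own lists was 65.3% by q-value, 48.4% and 46.9% in the lists of 8933 and 9110 peaks, 85.7% to 97.6% with 1 replicate left out and 99.6% with all 3 required. Where replicate peaks defined the regions, this share was high by construction and does not measure how well the clusters repeat. A/T content was 61.1% with 5 neighbours, 60.0% with 10, 59.8% within 5 kb, 61.5% within 20 kb and by q-value, 59.7% unmerged, 60.9% and 60.2% in the lists of 8933 and 12445 peaks, 60.9% and 59.2% with windows of 25 and 100 bp on each side, 61.3% to 61.8% with 1 replicate left out and 61.4% with all 3 required. Median signal was 192 within 5 kb, 232 by q-value, 200 and 195 in the lists of 8933 and 9110 peaks, 281 to 313 with 1 replicate left out and 313 with all 3 required.

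Leaving out 200 kb around CG6163, added after the data were seen like the requirement of all 3 replicates, left 1281 regions in 183 clusters. The share in all 3 replicates and the overlap difference have no value where replicate peaks define the regions. No paired analysis was possible because there is 1 group and so no groups whose replicates could be paired. The differences between members and other regions were already taken within each replicate. The number of peaks per replicate limits what can be called dense.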

Other observations

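Noncoding genes were also covered by the clusters. Spans overlapped 128 of 3231 noncoding RNA genes (3.96%), 6 of 290 tRNA genes and 4 of 268 small nucleolar RNA genes, the latter all within lola, and 0 of 261 pseudogenes. For the tRNA genes the share was 2.07%, near the 1.71% of protein-coding genes.

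The word TTTAAAG, chosen after the printed sequences were seen, occurred on either strand in 53 member windows, or 3.91% (exact 95% interval 2.94 to 5.08), and in 4.37% of the same windows over all regions. In windows 300 bp away it occurred in 2.76% for members and 2.37% for all regions.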
